A study of Mus musculus with 6 samples.

Results

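The C-type lectin receptor genes described here are Clec12a, Clec1a, Clec1b, Clec2d, Cd69, Klrb1c, Klrd1, Klre1 and Klrk1, which lie in the natural killer gene complex of chromosome 6 in the mouse. These 9 genes were chosen by name from the 45706 genes of the count table, with the difference between the genotypes already known, so that their fold changes are given as descriptions without p-values, and the number of them past the threshold of the fit over all genes is given only beside the share over all genes. The annotation places 50 protein-coding C-type lectin genes on chromosome 6 by symbol, of which 41 are not among the 9. Gene positions below are on chromosome 6 of GRCm38 (mm10).

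Expression was profiled by RNA-seq in LSK cells, the Lin- Sca-1+ c-Kit+ bone marrow fraction that holds stem and early progenitor cells, with 1 library for each of 6 male C57BL/6 mice, described by the study as littermates. The Ctrl group comprised 3 mice with 1 conditional Setd1b allele (FD/+; RC/+), AI03, AI54 and AI56, and the cKO group comprised 3 mice with both alleles conditional (FD/FD; RC/+), AI02, AI55 and AH74. Setd1b encodes a histone H3 lysine 4 methyltransferase. All 6 mice carried Rosa26-Cre-ERT2 (RC), a tamoxifen-inducible Cre active in almost all tissues, and all received tamoxifen by gavage at 4.5 mg per day, with cells collected 3 days after the last dose, at an age of 16 weeks (17 weeks for AH74). The Ctrl mice therefore carried Cre, tamoxifen exposure and 1 recombined allele as well. The Gt(ROSA)26Sor locus that holds the Cre gene is itself on chromosome 6, 15701151 bases before the first of the 9 genes, and RC was heterozygous in both groups.

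Counts per library totalled 13003573 to 21277519. The numbers of the libraries in the table header form 2 groups, taken here as library series, with AI03, AI02 and AI55 in series 1 and AI54, AI56 and AH74 in series 2. Read counts of Setd1b itself went against the genotype labels, with 213 ± 16.2 CPM (counts scaled to equal library size with TMM, mean ± SD, n = 3) in Ctrl against 292 ± 21.1 in libraries with the cKO label (log2 fold change 0.46 ± 0.07 SE, adjusted p = 0.0015 with edgeR), and counts over the whole gene do not resolve the deleted exon. Directions below are therefore those of the libraries labelled cKO. The genes of the LSK gate were present in every library, with Kit at 452 ± 59.5 CPM in Ctrl and 440 ± 24.7 in cKO, and Ly6a, which encodes Sca-1, at 44.4 ± 10.4 and 38.1 ± 2.04. Among the targets of the lineage antibodies, Cd3e, Cd8a and Ly6g were at or under 3 counts in every library, whereas Itgam, which encodes CD11b, was at 37.7 ± 2.18 CPM in Ctrl and 50.7 ± 7.12 in cKO, Cd4 at 1.89 ± 0.534 and 3.38 ± 0.455, and Trbc1 at 4.17 ± 2.28 and 0.171 ± 0.240.

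C-type lectins are proteins with a fold first known from calcium-dependent sugar binding. The members encoded in the natural killer gene complex are mostly type II transmembrane receptors that bind protein ligands. On natural killer cells they form activating and inhibitory receptors for class I molecules and stress-induced ligands, whereas the neighbouring Clec genes are used by myeloid cells, platelets and endothelium. Signals pass through adaptor chains such as Tyrobp and Hcst, through a tyrosine motif that recruits Syk, or through inhibitory motifs that recruit the phosphatases Ptpn6 and Ptpn11.

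The stretches before the start sites are shown first for the members whose libraries did not overlap between the genotypes and for Clec1b, the platelet receptor of the family. RefSeq (GRCm38.p6) gives windows from 250 bases before to 50 bases after the start for 6 of the 9 genes. Klre1 has more than a single window, so that these 6 genes have 7 windows together. The windows of Clec2d, Klrk1 and Clec1b are printed up to the start, at chr6:129180365-129180614 on the plus strand, chr6:129623865-129624114 on the minus strand and chr6:129397047-129397296 on the plus strand. For Clec12a, whose window lies in the untranslated part of an annotated first exon, only 23 bases are printed (chr6:129350089-129350111, plus strand). Capitals mark letters of motifs of 6 kinds (RUNX, GATA, PU.1, C/EBP, TATA box and KLF), each spelled out after the sequences, searched on both strands and chosen after these sequences had been seen.
Clec12a: TGTGGTaggagcaaaTTGCGCAA
Klrk1: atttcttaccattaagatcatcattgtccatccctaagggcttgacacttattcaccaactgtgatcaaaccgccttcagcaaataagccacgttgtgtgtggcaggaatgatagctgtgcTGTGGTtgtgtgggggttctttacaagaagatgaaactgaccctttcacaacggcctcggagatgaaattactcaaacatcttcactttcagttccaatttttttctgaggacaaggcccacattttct
Clec1b: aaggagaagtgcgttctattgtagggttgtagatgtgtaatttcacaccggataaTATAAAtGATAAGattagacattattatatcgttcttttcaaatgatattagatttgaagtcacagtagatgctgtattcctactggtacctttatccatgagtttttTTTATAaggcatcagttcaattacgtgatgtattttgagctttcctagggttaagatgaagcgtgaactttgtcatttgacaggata
Clec2d: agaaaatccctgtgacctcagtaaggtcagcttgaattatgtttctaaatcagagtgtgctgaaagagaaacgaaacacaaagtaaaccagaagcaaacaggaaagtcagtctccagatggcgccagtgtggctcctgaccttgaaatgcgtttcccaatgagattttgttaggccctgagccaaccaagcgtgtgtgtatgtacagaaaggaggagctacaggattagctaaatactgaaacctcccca

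The window of Clec12a held the RUNX letters TGTGGT 155 bases before the start, the C/EBP letters TTGCGCAA 140 bases before it and the PU.1 letters GAGGAAG 61 bases before it. RUNX letters were also found in the windows of Klrk1 (129 bases before the start) and Klrb1c (89 bases before) and in 1 window of Klre1 (229 bases before). They were thus in 4 of the 7 windows, from 4 of the 6 genes, against 16.8% of all 32851 windows of the same length. The full C/EBP palindrome was found in 0.183% of all windows and in Clec12a alone among the 6. PU.1 letters were present in 3 of the 7 windows (Klrb1c, Clec12a and the other window of Klre1) and in 13.6% of all windows. Clec1b held the GATA letters GATAAG 188 bases before the start and again 39 bases after it, a motif of 7.44% of all windows, and the TATA box letters TATAAA 195 and 87 bases before the start, a motif of 13.6% of all windows. The KLF letters CACCC occurred in Klrb1c and both windows of Klre1 and in 57.5% of all windows. No match shared a base with another within a window of these 6 genes. Clec2d held none of the 6 motifs. The windows of these genes held 1 to 6 CG dinucleotides, against a median of 7 over all windows, 47.9% of which held 6 or fewer. A match of letters is a description and no binding was measured.

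Levels differed widely among the 9 genes. On the scale of CPM per kilobase of exon (RPKM), which allows genes to be compared, Clec2d was the highest in Ctrl LSK cells at 94.3 ± 7.11 (SD, n = 3), followed by Cd69 at 18.0 ± 3.70 and Clec12a at 15.6 ± 3.17, the ranges of which overlapped. The remaining 6 genes lay between 0.122 for Clec1b and 0.536 for Clec1a, and each of these neighbours in the order overlapped with the next. In cKO the order of the first 3 was kept at 65.1 ± 6.24, 13.2 ± 2.10 and 4.18 ± 0.679 RPKM, with no overlap between neighbours, so that Cd69 and Clec12a were separated. Klrk1, Clec1b and Klre1 were the lowest in cKO, at 0.0619, 0.0488 and 0.0325 RPKM.

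Of the 9 genes, 7 passed the filter on low counts, and Clec1b and Klre1 did not. Klrk1 passed it only through its Ctrl libraries, with 25, 34 and 34 counts against 0, 6 and 6 in cKO. Only a lower call was therefore possible for Klrk1. Clec2d, Clec12a and Klrk1 were lower in cKO past an adjusted p of 0.05, against 3.79% of the 15184 genes tested, and no member was higher past it, against 3.88%. In the same 3 genes every cKO library lay below every Ctrl library, which held for 13.4% of all genes tested. No member had all cKO libraries above all Ctrl libraries (14.0% of all genes), and the values of the other 6 overlapped. Since the genes were chosen with these differences known, nothing is read from the counts. The median log2 fold change over all genes tested was 0.00.

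**Figure D1:**
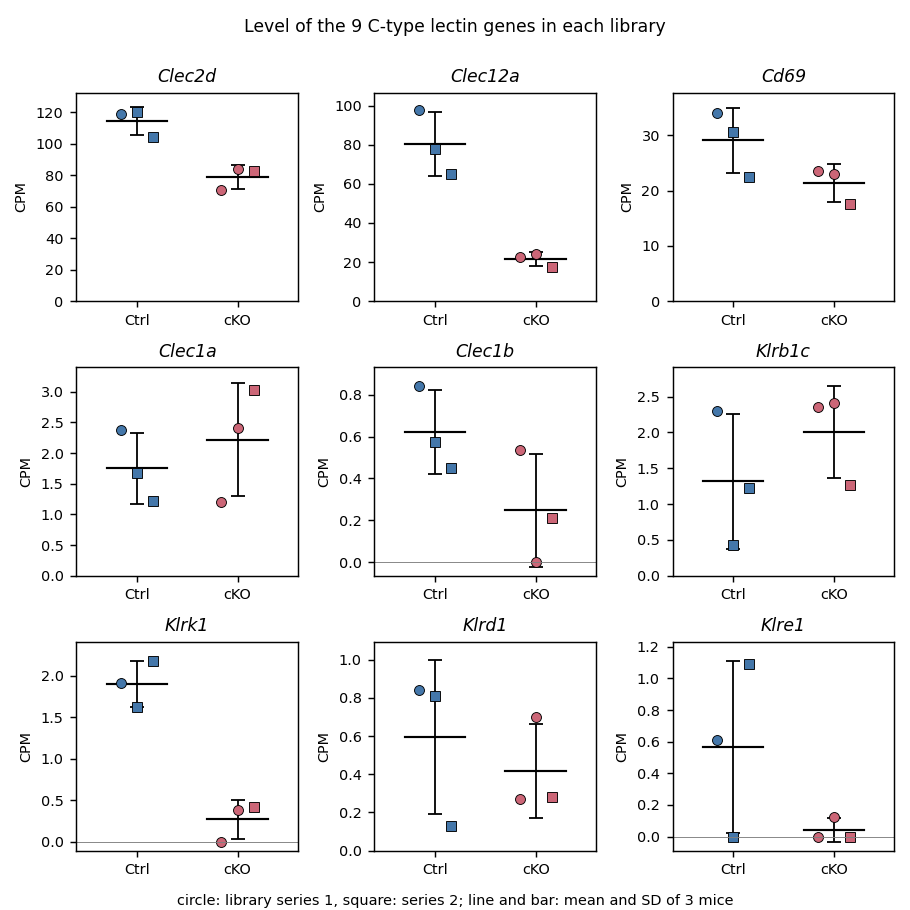
CPM of each of the 9 genes (y axis from 0, a scale for each panel) in the 3 Ctrl and 3 cKO libraries, with circles for library series 1, squares for series 2, and a line and bar for the mean and SD. Clec2d, Clec12a and Klrk1 show no overlap between the groups, while Klrb1c and Clec1a reach higher values in cKO than in any Ctrl library.

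Clec12a, an inhibitory receptor of granulocytes, monocytes and dendritic cells that recognizes uric acid crystals released by dead cells, had the largest difference among the well-counted members. Its gene (ENSMUSG00000053063) lies at 129342691 to 129365303 on the plus strand. Ctrl libraries held 1276, 1636 and 1020 counts (mice AI03, AI54 and AI56) and cKO libraries 340, 380 and 250 (mice AI02, AI55 and AH74). In CPM these were 97.6, 78.0 and 65.3 against 22.8, 24.1 and 17.5. The highest cKO library thus lay well under the lowest Ctrl library. The means were 80.3 ± 16.3 and 21.5 ± 3.49 CPM, 3.74-fold lower in cKO, with a fitted log2 fold change of -1.90 ± 0.14 (SE). Within library series 1 the difference of log2 CPM was -2.05, and within series 2 it was -2.02. Over 11 alternative settings the log2 fold change of Clec12a lay between -2.05 and -1.74.

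Clec2d encodes Clr-b, a widely expressed surface protein that is itself a ligand and engages an inhibitory receptor of the Klrb1 family on natural killer cells. It was the most abundant member (ENSMUSG00000030157, 129180615 to 129186534, plus strand). Counts of Clec2d were 1558, 2507 and 1632 in Ctrl and 1048, 1322 and 1177 in cKO, or 119, 120 and 104 CPM against 70.2, 84.0 and 82.6 CPM. The groups were separated by a gap that was wider than the spread within either of them. The mean went from 114 ± 8.63 to 78.9 ± 7.57 CPM, 1.45-fold lower in cKO, with a log2 fold change of -0.54 ± 0.08. The difference was -0.63 in series 1 and -0.44 in series 2 and lay between -0.60 and -0.46 over the alternatives. Among the cKO libraries the lowest and the highest, AI02 and AI55, both belonged to series 1.

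Cd69, the early activation marker that retains lymphocytes in tissues by pulling S1pr1 from the surface, lies between Clec2d and Clec12a (ENSMUSG00000030156, 129267324 to 129275369, minus strand). It had 446, 645 and 351 counts in Ctrl and 352, 364 and 249 in cKO. In CPM the values were 34.1, 30.7 and 22.5 against 23.6, 23.1 and 17.5, so that Ctrl mouse AI56 was below cKO mice AI02 and AI55 and the groups overlapped. Within each series all cKO libraries were below the Ctrl libraries, with differences of -0.54 and -0.59 on the log2 scale. The means were 29.1 ± 6.00 and 21.4 ± 3.41 CPM and the log2 fold change was -0.44 ± 0.15, between -0.60 and -0.32 over the alternatives. Cd69 was past the threshold of the fit over all genes only with library series as a covariate, without the filter on low counts or without Ctrl mouse AI56.

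The receptors of natural killer cells were near the limit of detection in LSK cells. Klrk1 encodes NKG2D, the activating receptor for stress-induced relatives of class I molecules (ENSMUSG00000030149, 129610323 to 129623864, minus strand). It was counted 25, 34 and 34 times in Ctrl and 0, 6 and 6 times in cKO, which is 1.91, 1.62 and 2.18 CPM against 0, 0.381 and 0.421 CPM. The difference between the sums, 93 counts in Ctrl and 12 in cKO, was shared by all 3 mice of each group. The means of 1.90 ± 0.277 and 0.267 ± 0.232 CPM differed 7.12-fold, and the fitted log2 fold change was -2.79 ± 0.61, with -3.01 in series 1 and -1.87 in series 2. The log2 fold change lay between -3.24 and -2.22 over the alternatives in which Klrk1 passed the filter, which excludes that of at least 10 counts in every library. Among the 3 members past the threshold, Klrk1 was the one that did not pass without Ctrl mouse AI56 or at an adjusted p of 0.01.

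Klre1, which forms receptors on natural killer cells with Klri1 or Klri2, gave 8, 0 and 17 counts in Ctrl and 0, 2 and 0 in cKO (ENSMUSG00000050241, 129577893 to 129585824, plus strand). It was the only member for which no cKO library exceeded 3 counts. One Ctrl library, AI54, was also at 0 although it was the deepest of all 6. Against a floor of 3 counts in each cKO library, Klre1 was at least 2.82-fold lower in cKO, a bound that was 1.53 without Ctrl mouse AI56, and the groups overlapped. Klrd1 encodes CD94, the chain that joins Klrc1 or Klrc2 to bind the class Ib molecule Qa-1 (ENSMUSG00000030165, 129591782 to 129598775, plus strand), and had 11, 17 and 2 counts in Ctrl and 4, 11 and 4 in cKO. The lowest library of Klrd1 was a Ctrl library, and the groups, with means of 0.593 ± 0.403 and 0.416 ± 0.245 CPM, overlapped. Its log2 fold change of -0.50 ± 0.69 was smaller than its standard error.

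Klrb1c encodes NK1.1, and the cells had been sorted as negative for a lineage cocktail that contained an antibody to NK1.1. The gene (ENSMUSG00000030325, 128778485 to 128789215, minus strand) still gave 30, 9 and 19 counts in Ctrl and 35, 38 and 18 in cKO, that is 2.30, 0.429 and 1.22 CPM against 2.35, 2.41 and 1.26 CPM. The low value of Ctrl mouse AI54 set the difference of the means, 1.31 ± 0.937 against 2.01 ± 0.646 CPM. The log2 fold change was 0.68 ± 0.50 with all libraries, 0.21 without AI54 and 1.33 without Ctrl mouse AI03. Within series 1 it was 0.05. Klrb1c thus had a log2 fold change above 0 whichever library was left out, and Klrk1 one below 0, but the contrast between these genes was not tested.

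Among the Clec receptors of platelets and endothelium, Clec1b encodes CLEC-2, the podoplanin receptor of platelets (ENSMUSG00000030159, 129397297 to 129409335, plus strand). It had 11, 12 and 7 counts in Ctrl and 8, 0 and 3 in cKO. The sums were 30 and 11, and cKO mouse AI02 lay above Ctrl mouse AI56 in both counts and CPM. The group means were 0.621 ± 0.201 and 0.249 ± 0.270 CPM. Exons of Clec1b and of its neighbour Clec9a share 184 bases on the same strand, so that the counts of either may miss reads of both. Clec1a, a receptor of endothelial and myeloid cells (ENSMUSG00000033082, 129426684 to 129452000, minus strand), was counted 31, 35 and 19 times in Ctrl and 18, 38 and 43 times in cKO. The groups overlapped, with means of 1.75 ± 0.583 and 2.21 ± 0.922 CPM, and the log2 difference had opposite signs in the series, -0.44 in series 1 and 1.02 in series 2. Without cKO mouse AH74 the fitted log2 fold change of Clec1a was 0.06, compared with 0.35 ± 0.40 for all libraries.

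Most of the other 41 C-type lectin genes of chromosome 6 had too few counts to be tested. There was no count at all for 9 of them, and 18 were at or under 3 counts in every library. Only 6 were tested, of which 1 passed the threshold, Clec9a (lower in cKO), with a median log2 fold change of -0.43. Clec9a encodes DNGR-1, the receptor of cross-presenting dendritic cells for dead cells, and lies between Clec1b and Clec1a. It had 12, 26 and 19 counts in Ctrl and 7, 0 and 2 in cKO, and fell from 1.12 ± 0.179 to 0.203 ± 0.241 CPM (log2 fold change -2.45 ± 0.71, adjusted p = 0.047 with edgeR). Clec9a passed the filter only through its Ctrl libraries, so that only a lower call was possible for it. Over 10 alternatives its adjusted p lay between 0.015 and 0.17 and passed in 3 of them. The call was kept when cKO mouse AI02 was left out but lost when any of the other 5 mice was. The tested receptors of myeloid cells were Clec4d (log2 fold change -0.65 ± 0.30, adjusted p = 0.22), Clec4e (0.02, adjusted p = 0.97) and Clec5a (-0.10, adjusted p = 0.91) with edgeR, so that no difference was called for them. Clec4e and Clec4d encode paired activating receptors for microbial glycolipids. The natural killer receptor Klrb1f and its ligand Clec2i had log2 fold changes of -0.22 (adjusted p = 0.73) and -0.71 (adjusted p = 0.23) with edgeR.

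A few untested genes, named after their values were seen, stood beside the members. Klri2, a partner chain of Klre1, had 12, 5 and 9 counts in Ctrl and 0 in every cKO library, at least 2.88-fold lower against the floor. The other partner, Klri1, had 5 counts in all Ctrl libraries together and 0 in cKO. For the partners of Klrd1 the sums were 13 in Ctrl and 8 in cKO for Klrc1, and 10 and 2 for Klrc2. Of the Ly49 receptors, the class I receptors of mouse natural killer cells encoded by the Klra genes, 11 were listed and 4 had no count, and their sums were 66 in Ctrl and 28 in cKO. Reads of these near-identical genes may be split or lost in counting. Within them Klra4 had 5, 11 and 11 counts in Ctrl and 0 in all cKO libraries, at least 2.68-fold lower. Klra4 thus gave 27 of the 66 Ctrl counts of the Klra genes. Olr1, the receptor for oxidized lipoprotein, had 24, 13 and 18 counts in Ctrl and 3, 9 and 0 in cKO. Other untested genes were level or higher in cKO. Sums in Ctrl and cKO were 10 and 10 for Klra1, 0 and 4 for Klra2, 11 and 13 for Klrb1b, and 11 and 10 for Clec4a3. They were 1 and 10 for Clec2l, where all 10 came from AI02.

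**Figure D2:**
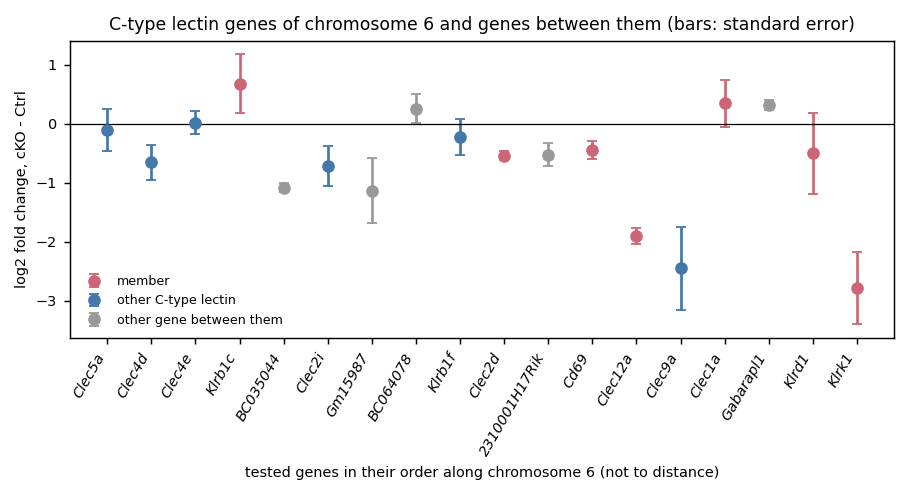
Fitted log2 fold change (cKO minus Ctrl, y axis) with its standard error for the tested C-type lectin genes of chromosome 6 and the tested genes between the outermost members, in chromosomal order on the x axis without distances. Low values at Clec12a and Clec9a stand between Cd69 at -0.44 and Clec1a at 0.35, and Klrd1 and Klrk1, at -0.50 and -2.79, are direct neighbours in this order.

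Along the chromosome the members span 845380 bases, and members with negative and with positive fitted log2 fold changes were interspersed. The positive ones, Klrb1c and Clec1a, had overlapping groups and did not pass the threshold. The same held for Cd69 and Klrd1 among the negative ones. From Klrb1c to Klrk1 the log2 fold changes of the tested members were 0.68, -0.54, -0.44, -1.90, 0.35, -0.50 and -2.79. There were 17 genes of other kinds between the outermost members, of which 5 were tested. BC035044, a gene listed under a clone name between Klrb1c and Clec2d, fell from 105 ± 8.65 to 49.8 ± 4.14 CPM (log2 fold change -1.08 ± 0.08, adjusted p = 1.5e-06 with edgeR). Gabarapl1, an autophagy gene between Clec1a and Klre1, rose from 52.9 ± 3.26 to 66.0 ± 2.40 CPM (0.32 ± 0.08, adjusted p = 0.023 with edgeR), a call that was lost without AI03, AI56, AI55 or AH74 (highest adjusted p = 0.12).

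**Figure D3:**
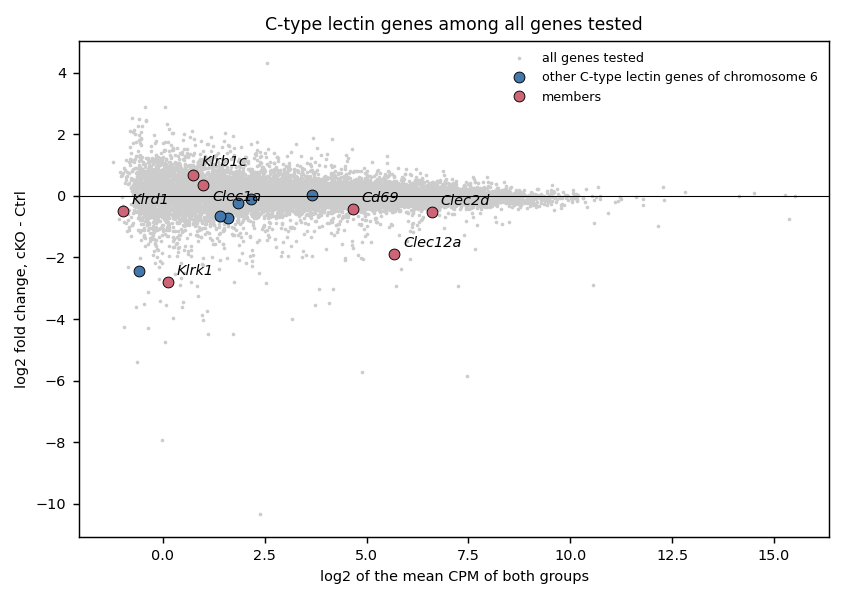
Log2 fold change (cKO minus Ctrl, y axis) against log2 of the mean CPM (x axis) for the 15184 genes tested in grey, with the 7 tested members in red and the 6 other tested C-type lectin genes of chromosome 6 in blue. Clec12a stands at -1.90, Clec2d at -0.54 is the most abundant member, and Klrk1 at -2.79 lies among genes of low counts.

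The pattern of the well-counted members over the 6 libraries was compared with that of the 11052 genes with at least 5 CPM. Over these 6 libraries, log2 CPM of Clec12a was most like that of Cyb561d2 (Pearson r = 0.997), Bpifc (0.997) and Ino80dos (0.996). Such a correlation does not compare the size of changes. Mean CPM in Ctrl and cKO was 11.1 and 8.81 for Cyb561d2, 8.37 and 3.49 for Bpifc, and 24.0 and 15.7 for Ino80dos. Clec2d was most like Id2 (0.996), H2-Ob (0.996) and Prepl (0.994). For Cd69, which varied more among mice of a group, close genes were Ltn1 (0.985) and Sec24a (0.982). Above r = 0.9 there were 460 genes for Clec12a, 256 for Clec2d and 158 for Cd69. The libraries fall into 2 groups and share their depth and handling, so these values are a description.

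The receptors need adaptors and enzymes, of which 18 were listed and 17 tested, and the summed level of these was 2090 to 2197 CPM in Ctrl and 2210 to 2330 CPM in cKO. Only Fyn, a kinase upstream of the adaptors, passed the threshold (60.8 ± 4.50 to 84.6 ± 10.9 CPM, log2 fold change 0.48 ± 0.09, adjusted p = 0.0053 with edgeR). Hcst, the adaptor of Klrk1, was present in cKO at 4.50 ± 1.83 CPM against 3.99 ± 1.17 in Ctrl (log2 fold change 0.16 ± 0.31), and Tyrobp at 23.3 ± 2.72 against 25.9 ± 3.43 CPM (-0.16 ± 0.13). Syk, the kinase that binds Clec1b, was at 370 ± 19.3 CPM in cKO and 319 ± 18.1 in Ctrl (adjusted p = 0.059 with edgeR), and Ptpn6, which Clec12a recruits, at 294 ± 21.1 and 283 ± 21.0 CPM. The median log2 fold change of the list was -0.02.

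Of 16 ligands and surface partners, 8 were tested and 4 were lower past the threshold, including Clec2d itself, and 1 was higher. H2-T23, which encodes Qa-1, the ligand of Klrd1 with its partners, rose from 90.8 ± 5.24 to 124 ± 2.83 CPM (log2 fold change 0.46, adjusted p = 0.00076 with edgeR). The Cd69 ligands S100a8 and S100a9 had log2 fold changes of -1.96 and -2.16 with edgeR (adjusted p = 0.036 and 0.030), and Cdh1, a ligand of the lectin-like Klrg1, fell by 3.42 (adjusted p = 0.0041 with edgeR). S100a9 and Cdh1 passed the filter only through their Ctrl libraries, so that only a lower call was possible for them. Ulbp1, a ligand of Klrk1, was at 9.82 ± 1.71 CPM in Ctrl and 9.11 ± 0.692 in cKO. The transcript of podoplanin, the ligand of Clec1b, had no count in any library.

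Markers of cells that use these receptors were measured in the same libraries. In bulk samples, fewer cells of a type and less RNA per cell cannot be told apart. Of 19 natural killer cell genes that are not C-type lectins, 10 were tested, and 3 fell and none rose, with a median of -0.62. The summed level was 147 to 161 CPM in Ctrl and 101 to 110 CPM in cKO. Most of it came from Nkg7, Il18rap (44.0 ± 9.17 and 36.0 ± 1.11 CPM) and Cd244a (35.8 ± 0.603 and 29.7 ± 3.17). Eomes was at 1.17 ± 0.391 CPM in Ctrl and 0.613 ± 0.308 in cKO. Gzmb, a cytotoxic granule protease, went from 6.28 ± 3.46 to 0.264 ± 0.101 CPM (log2 fold change -4.50 ± 0.49, adjusted p = 4.7e-05 with edgeR), Nkg7 from 48.4 ± 8.38 to 26.8 ± 3.83 (-0.85, adjusted p = 0.00082) and Ccl5 from 7.32 ± 2.19 to 3.75 ± 0.444 (-0.96, adjusted p = 0.031), the last of which was lost when any mouse but AI56 was left out (highest adjusted p = 0.13). Ncr1, the defining receptor NKp46, had 43 counts in all Ctrl libraries and 5 in cKO, and Prf1 had 22 in each group. In Ctrl mouse AI54, where Klre1 had no count, Gzmb had 82 counts and Ncr1 18. Gzmb passed the filter only through its Ctrl libraries, so that only a lower call was possible for it. Other genes of the list were not lower in cKO, such as Itga2 at 3.50 ± 2.03 CPM in Ctrl and 4.11 ± 1.40 in cKO and Sh2d1b1 at 0.569 ± 0.175 and 0.790 ± 0.387. The part of natural killer cells in these values was not tested.

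Of 18 T cell genes 10 were tested and 2 fell, Trbc1 (log2 fold change -4.48, adjusted p = 0.00080 with edgeR) and Tcf7 (-0.95, adjusted p = 0.031, but 0.15 with the DESeq2 Wald test and lost without AI03, AI02, AI55 or AH74), with a list median of -0.82 and sums of 61.0 to 92.6 CPM in Ctrl and 59.1 to 71.4 in cKO. Trbc1 passed the filter only through its Ctrl libraries. The defining gene Cd3e had 1 count in all 6 libraries together, and Cd8b1 had 0. All 15 granulocyte and monocyte genes, the markers nearest to Clec12a, were tested. Among them 13 fell and none rose (median -1.27). Their sum went from 3201 to 3825 CPM in Ctrl to 680 to 1033 CPM in cKO. Most of the Ctrl sum was Mpo, which alone went from 2668 ± 330 to 360 ± 97.5 CPM. Mpo fell by 2.89, Elane by 2.37, Ms4a3 by 1.69 and Ctsg by 1.27 in log2 units (edgeR, adjusted p = 1.6e-08, 9.1e-08, 0.00027 and 1.2e-05). Clec12a, at -1.90, was within the range of these genes, and their part in its value was not tested. By contrast the myeloid receptor Clec4e was at 12.4 ± 3.47 and 12.7 ± 2.36 CPM. Itgam, which encodes CD11b and was listed with the lineage targets instead, rose (log2 fold change 0.43, adjusted p = 0.019 with edgeR). Of 9 dendritic cell genes 5 were tested and Zbtb46 fell (-1.37, adjusted p = 0.025 with edgeR), with sums of 233 to 329 CPM in Ctrl and 221 to 262 in cKO. Most of these sums was Flt3 (249 ± 49.3 and 200 ± 22.0 CPM), which was also listed for the LSK gate.

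For the Clec receptors of platelets and endothelium the marker lists went in both directions. Of 15 megakaryocyte and platelet genes 13 were tested, 2 fell and 3 rose, with a sum of 242 to 290 CPM in Ctrl and 254 to 359 in cKO. Log2 fold changes of Pf4 and Thbs1 were -1.27 and -0.89 with edgeR (adjusted p = 2.3e-05 and 0.014), whereas Itgb3 rose by 1.07 (adjusted p = 0.0020). Of 9 endothelial genes 7 were tested, 1 fell and 3 rose. Pecam1 fell by 0.33 (adjusted p = 0.0054 with edgeR), and Esam, Tek and Kdr, genes of endothelial junctions and growth factor receptors, rose by 1.19, 0.82 and 1.90 (adjusted p = 0.0017, 0.0058 and 0.0069). Their sum was 277 to 304 CPM in Ctrl and 267 to 295 in cKO. Of 10 B cell genes 4 were tested and Vpreb1 fell (-1.99, adjusted p = 0.028 with edgeR), with sums of 21.7 to 30.0 and 28.5 to 33.3 CPM.

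**Figure D4:**
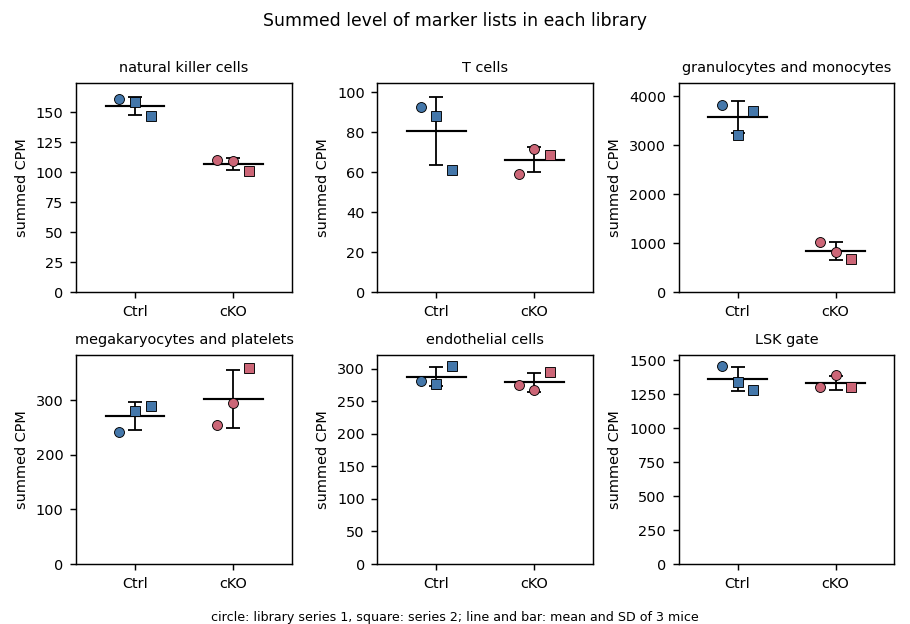
Summed CPM (y axis from 0) of 6 marker lists in each Ctrl and cKO library, with circles for library series 1, squares for series 2, and a line and bar for the mean and SD of 3 mice. The granulocyte and monocyte sum, most of which was Mpo in Ctrl, separates the groups most widely (3201 to 3825 against 680 to 1033 CPM). The natural killer cell sum, mostly Nkg7, Il18rap and Cd244a, also separates them. The sums of the T cell, megakaryocyte, endothelial and LSK gate lists overlap.

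Among targets of the lineage antibodies, 10 were listed with Klrb1c, and 5 were tested. Trbc1 and Trdc fell, the latter from 49 counts in Ctrl to 2 in cKO (log2 fold change -4.25, adjusted p = 0.0061 with edgeR), and Itgam rose (0.43, adjusted p = 0.019). Both Trbc1 and Trdc passed the filter only through their Ctrl libraries, so that only a lower call was possible for them. Klrb1c was the only other target besides Cd4 that passed the filter without passing the threshold. Among 8 genes of the LSK gate and its subsets, Procr and Mecom rose (1.43 and 0.45, adjusted p = 0.00036 and 0.0032 with edgeR) and none fell.

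C-type lectin genes of other chromosomes, a list added after the data had been seen, gave 10 tested of 15, with 2 lower and 1 higher and a median of 0.06. Cd93, a receptor of early progenitors and endothelium, fell from 374 ± 23.3 to 208 ± 4.68 CPM (log2 fold change -0.85, adjusted p = 9.5e-07 with edgeR). Ly75, an endocytic receptor of dendritic cells, rose from 25.3 ± 1.73 to 34.4 ± 1.39 CPM (0.44, adjusted p = 0.012 with edgeR), a call lost without AI56 or AI55 (highest adjusted p = 0.066). Cd93 was thus more abundant in CPM than Clec12a, with a fold change nearer to 0.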

How the data were processed

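RNA-seq was performed on LSK cells of 3 Ctrl and 3 cKO mice, each a separate animal. Per the labels, the authors aligned reads to mm10 with GSNAP and deposited raw counts per gene, made with featureCounts 1.5.0 on Ensembl 81 with the strand of the gene and a minimum mapping quality of 1. No column was pooled or normalized. GENCODE M21 named 98.8% of the 45706 genes.

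The members and lists were chosen with earlier results of these data known. From the counts, edgeR 4.0.16 (R 4.3.3) fitted all 6 libraries by quasi-likelihood, with TMM, filterByExpr and no covariate, adjusted by Benjamini-Hochberg over 15184 genes (threshold 0.05). The procedure was tested on simulated data. Klrk1, Clec9a, Gzmb, Trbc1, Trdc, Cdh1, S100a9 and Vpreb1 passed filterByExpr only through Ctrl libraries, so that they could only be called lower. SE were derived from the F statistic. RPKM used the deposited exon length. A floor of 3 counts per library gave bounds, for counting error only. Alternatives were DESeq2 1.42.0 (test and size factors), no filter, at least 10 counts in every library, library series as covariate, a threshold of 0.01 and leaving out each mouse. Named genes were the 9 members, Setd1b, the other chromosome 6 lectins past the threshold or with 100 counts or more, up to 4 genes of smallest adjusted p in a list, gate and lineage targets, the 3 genes most like each well-counted member, and called genes between them. Other named genes were chosen after their values were seen. Some items are not reported here.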

Additional observations from a re-analysis of the deposited data

How the results depend on the processing

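The 7 tested members kept the sign of their fold change under every alternative that gave a value, and 0 were higher past the threshold. The 3 lower members became 2 at 0.01 and with at least 10 counts in every library (Klrk1 lost, in the latter because it was not tested) and 4 with library series as a covariate and without the filter (Cd69 gained), while without Ctrl mouse AI56 Cd69 passed in place of Klrk1. Over all genes, 575 lower calls became 527 with at least 10 counts in every library and 527 with library series as a covariate. They became 873 without the filter, 272 at a threshold of 0.01, and 308 to 594 when a mouse was left out (340 without Ctrl mouse AI56, 308 without cKO mouse AI55). The 589 higher calls became 579 with at least 10 counts in every library, 562 with the covariate and 809 without the filter. They became 241 at 0.01 and 296 to 531 when a mouse was left out (325 without AI56, 296 without AI55, 345 without cKO mouse AH74, 390 without cKO mouse AI02). The number of genes tested changed with the filter, and nothing is read from the members' counts. The count for the other chromosome 6 C-type lectin genes (1 lower, Clec9a) was 0 with the DESeq2 Wald test, with at least 10 counts in every library, with library series as a covariate and at 0.01, 4 without the filter, and 0 to 1 when a mouse was left out. No paired analysis was possible because the labels give no replicate numbers that the groups share and do not say which of the mice, littermates per the study's text, came from the same litter. Low counts limit Klrk1, Klrd1, Klre1 and Clec1b, which were at or under 3 counts in at least 1 library. In the main fit Klrk1 was tested only because its Ctrl libraries passed the filter. Of the marker and partner lists, the number lower past the threshold was, without the filter, 5 for natural killer cells (3 before), 2 for dendritic cells (1 before) and 1 for the LSK gate (0 before). With at least 10 counts in every library it was 1 for T cells, 0 for B cells, 0 for lineage targets and 1 for ligands, with the DESeq2 Wald test 1 for lineage targets (Trdc then had no adjusted p), and at 0.01 it was 1 for T cells, 0 for B cells, 8 for granulocytes and monocytes, 1 for megakaryocytes, 0 for dendritic cells and 2 for ligands. The number higher was 1 for B cells and 2 for signalling partners with the DESeq2 Wald test and without the filter, 2 for signalling partners and for lectins of other chromosomes with library series as a covariate, 2 for these lectins without the filter, and 0 at 0.01 for lineage targets, genes between the members and lectins of other chromosomes. Leaving out 1 mouse, the number lower was 2 to 6 for natural killer cells (6 without AI56), 1 to 2 for T cells, 0 to 1 for B cells, dendritic cells and the LSK gate, 8 to 13 for granulocytes and monocytes (8 without AI55 or AH74), 1 to 3 for megakaryocytes and 2 to 4 for ligands, and the number higher was 0 to 1 for B cells, lineage targets and genes between the members and 0 to 2 for lectins of other chromosomes. The calls of Tcf7, Zbtb46, Vpreb1, S100a8, S100a9 and Itgam were lost on leaving out any of 4 or 5 of the mice, in each case including AI55 (that of Tcf7 also with the DESeq2 Wald test), that of Thbs1 without AI56 or AI02, and that of Kdr without AI55. No result reversed, and why calls were lost was not tested.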
